A study of Mus musculus with 12 samples.

Results

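Accessible chromatin was examined at 9 genes that cause recessive or other inherited parkinsonism, namely Pink1, Park7, Fbxo7, Vps35, Atp13a2, Vps13c, Dnajc6, Synj1 and Pla2g6. Regions were built by joining peaks of 12 ATAC-seq libraries that shared at least 1 bp. They were given to a gene if they lay in the gene body or within 10 kb upstream of a transcription start site. By this rule 79 of 263785 regions belonged to the 9 genes, with 4 at Pink1, 7 at Park7, 5 at Fbxo7, 1 at Vps35, 3 at Atp13a2, 16 at Vps13c, 25 at Dnajc6, 11 at Synj1 and 7 at Pla2g6. The regions of each gene are numbered here along the chromosome.

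In ATAC-seq the transposase Tn5 cuts open chromatin, so that fragments pile up where DNA is accessible. The cells were wild-type C57BL/6 cortical neurons taken at embryonic day 18 and grown in culture, with 3 libraries in each of 4 groups, and the labels put all 12 in a single batch. PBS neurons received vehicle for 7 days, and PFF neurons received pre-formed fibrils, the aggregated seed form of α-synuclein, for the same 7 days. PFF+MLi-2 neurons received PFF for 7 days and the LRRK2 kinase inhibitor MLi-2 during the last 5 of them. PFF+Rab5 ASO neurons received PFF for 7 days and antisense oligonucleotides against Rab5, a GTPase of early endosomes, during the last 3. Values under MLi-2 or under the Rab5 ASO are those of these PFF-treated neurons. The sample descriptions of both interventions give PBS where the titles and treatment labels give PFF, and the titles and treatment labels were followed. By them, no group had MLi-2, the Rab5 ASO or a control oligonucleotide without PFF. The study's methods count each pregnancy as a replicate, with its cultures spread over the groups, but no source used here ties a library to a pregnancy, so p-values measure the spread between these libraries.

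The 9 genes serve a few connected tasks. PINK1, DJ-1 (the product of Park7) and FBXO7 act in the care and removal of damaged mitochondria. VPS35, ATP13A2 and VPS13C act on endosomes, lysosomes and the membrane contacts between organelles. DNAJC6 (auxilin) and synaptojanin-1 strip the clathrin coat from vesicles after endocytosis, a step that synapses depend on, and PLA2G6 is a phospholipase that keeps membranes in repair.

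The libraries held 137417 to 184717 peaks, with a median of 16 to 18 fragments at the summit. Relative depth, read from the local background that the peak caller used, was 0.939 ± 0.0332 in PBS, 0.843 ± 0.0728 in PFF, 0.999 ± 0.0374 under MLi-2 and 1.22 ± 0.149 under the Rab5 ASO (SD, n = 3). Under the Rab5 ASO the narrowest peak of a library spanned 53 to 59 bp, and in the other 9 libraries it spanned 62 to 66 bp. Depth and peak width therefore moved with the Rab5 ASO. Depth also differed without overlap between PFF (0.775 to 0.919) and PFF+MLi-2 (0.957 to 1.03). The part of depth and peak width in the differences described below was not tested. All 12 neuronal markers examined had a start-site peak in every library, with a median percentile of 72.8, and the markers with a peak had a median of 71.2 for oligodendrocytes and 62.6 for astrocytes. Start-site peaks were also found in every library at 4 of 6 astrocyte markers, 3 of 6 oligodendrocyte markers, 0 of 6 microglial markers and 1 of 4 endothelial markers. Mog, Cx3cr1, Aif1, Itgam, Pecam1 and Tek had no start-site peak in any library.

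Most of the 79 regions were weak and called in part of the libraries. All 12 libraries had a peak in 25 of them (31.6%, against 27.5% of all regions), and 1 library alone had a peak in 23 (29.1%, against 26.6%). Within 1 kb of a gene's 5′ end, 10 of 13 regions (76.9%) were called in every library, against 57.4% of such regions over all protein-coding genes. The same held for 5 of 13 regions at start sites inside the gene (38.5%, against 36.9%), 8 of 44 intronic regions (18.2%, against 22.9%), 2 of 7 upstream regions (28.6%, against 35.3%) and 0 of 2 exonic regions (0%, against 28.4%). Height was read as the percentile of a peak's fold enrichment over local background within its own list, where 100 is the tallest peak. The regions called in all 12 libraries had a median percentile of 72.5 and a median width of 484 bp, and those called in 1 library had 16.5 and 65 bp. The tallest was the Vps13c start-site region, and the lowest of those called everywhere was intronic region 3 of Pink1, with a mean percentile of 7.6.

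**Figure D1:**
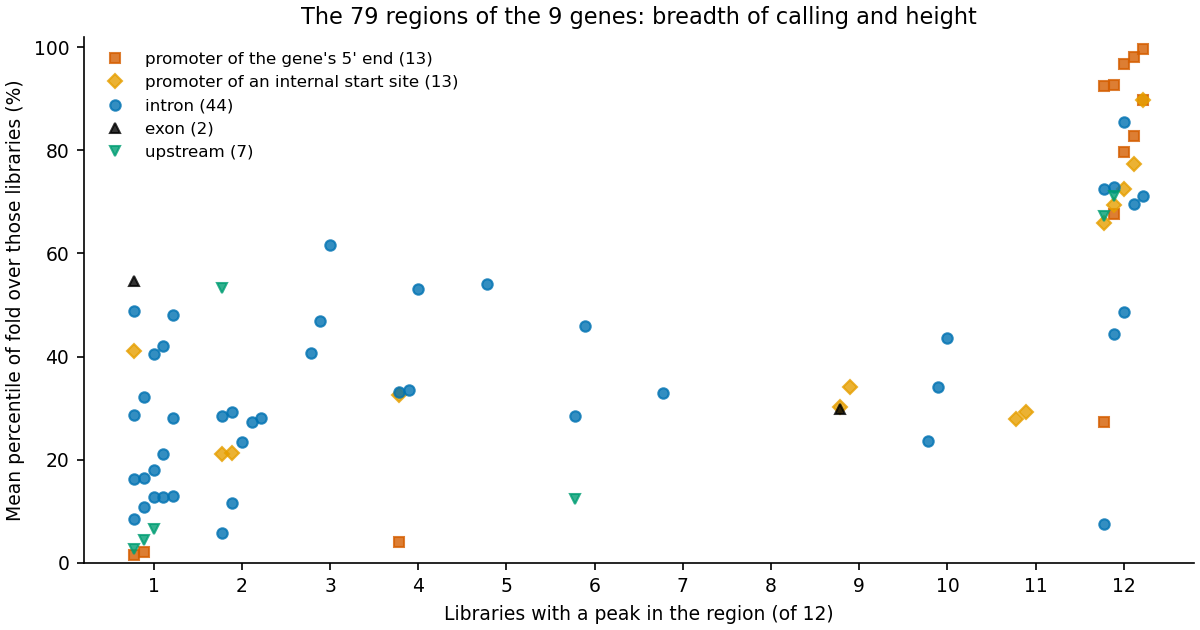
Each point is 1 of the 79 regions, placed by the number of libraries with a peak (horizontal axis, shifted sideways where points coincide) and the mean percentile of its fold over those libraries (vertical axis, %). Symbols give the position in the gene. The regions called in all 12 libraries had percentiles from 7.6 to 99.6, and the 23 regions called in 1 library from 1.57 to 54.6.

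The number of member regions called per library was 40, 35 and 37 in PBS, 47, 47 and 38 in PFF, 35, 37 and 36 under MLi-2 and 46, 43 and 40 under the Rab5 ASO. As a share of the 79 regions this was 47.3% ± 3.19 in PBS, 55.7% ± 6.58 in PFF, 45.6% ± 1.27 under MLi-2 and 54.4% ± 3.80 under the Rab5 ASO (SD, n = 3). Over all 263785 regions the shares were 50.1% ± 8.08, 53.1% ± 3.66, 46.5% ± 0.364 and 54.0% ± 4.37. The PFF and PFF+MLi-2 counts did not overlap, and the PFF and PBS counts did, and both held for the shares of all regions too. These counts are given as a description without a test, and in bulk libraries fewer cells with an open region and less opening per cell cannot be told apart.

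Pink1, the kinase that marks damaged mitochondria for removal, had all 4 regions called in all 12 libraries. Park7 had 3 to 6 of 7 regions called and Fbxo7, a substrate adaptor of a ubiquitin ligase, 3 to 5 of 5. Vps35, the cargo-binding core of retromer, had its single region called in every library, and Atp13a2, a lysosomal P5-type ATPase, had 1 or 2 of 3. Vps13c, a lipid transfer protein, had 5, 4 and 3 of 16 regions called in PBS and 8, 7 and 5 in PFF. With MLi-2 the Vps13c counts were 4, 5 and 5, and with the Rab5 ASO they were 7, 5 and 5, so all 4 groups overlapped. Dnajc6 had 10 regions called in each PBS library, 14, 12 and 11 in PFF, 10, 13 and 11 under MLi-2, and 15, 17 and 14 under the Rab5 ASO. The Rab5 ASO libraries thus had the most calls at Dnajc6, and their lowest count equalled the highest PFF count, while their lists also held the largest share of all regions (54.0%, against 50.1% in PBS, 53.1% in PFF and 46.5% under MLi-2). Synj1 had 4 to 7 regions called in PBS, 5 to 7 in PFF, 3 to 5 under MLi-2 and 6 or 7 under the Rab5 ASO. Pla2g6 had 2 to 4 regions called in PBS, 3 or 4 in PFF, 2 or 3 under MLi-2 and 2 or 3 under the Rab5 ASO.

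Each gene had at least 1 start-site region in all 12 libraries. For Pink1 it was chr4:138325468-138326435 in GRCm38, region 4, which covers the 5′ end and also the miRNA gene Gm27646. Its percentile was 82.5, 78.7 and 77.3 in PBS, 79, 78.5 and 75.2 in PFF, 76.8, 80.5 and 83.7 under MLi-2, and 75.2, 84.0 and 83.2 under the Rab5 ASO. The PFF and PBS values overlapped in percentile, and no group stood apart from all the others.

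Park7 had a start-site region inside the gene (region 3, chr4:150909576-150910142) and another at its 5′ end (region 5, chr4:150914308-150914713), which also lies at Tnfrsf9. Region 3 reached 88.4, 91.3 and 90.5 in PBS, 90.6, 88.0 and 86.7 in PFF, 86.4, 91.6 and 88.7 under MLi-2, and 92.2, 90.3 and 92.0 under the Rab5 ASO. Region 5 lay lower, at 79.1 to 88.9 over the 12 libraries. Both regions overlapped between all groups.

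At Fbxo7 the start-site region 2 (chr10:86021537-86022381) also covers the antisense gene A230060F14Rik, and reads of the pair cannot be separated. It lay at 99.0, 98.1 and 98.9 in PBS, 96.8, 98.9 and 98.5 in PFF, 96.9, 97.7 and 96.8 under MLi-2, and 99.0, 98.5 and 98.3 under the Rab5 ASO. The PFF+MLi-2 values were all below those of PBS and PFF+Rab5 ASO, but not below all of PFF.

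Among the endosomal and lysosomal genes, the Vps35 region (chr8:85299043-85300051), which it shares with the divergent gene Orc6, lay at 95.4, 96.3 and 96.0 in PBS, 97.5, 95.9 and 97.0 in PFF, 94.8, 97.2 and 98.6 under MLi-2, and 95.5, 98.8 and 97.5 under the Rab5 ASO. The Atp13a2 region 2 (chr4:140986585-140987109) lay at 90.7, 89.7 and 86.9 in PBS, 90.5, 87.4 and 85.5 in PFF, 91.1, 92.1 and 90.2 under MLi-2, and 88.6, 91.9 and 93.0 under the Rab5 ASO. Vps13c region 2 (chr9:67840038-67840876) was among the tallest peaks of every list, at 99.9, 99.7 and 98.9 in PBS, 99.8, 99.2 and 99.7 in PFF, 99.7, 99.1 and 99.8 under MLi-2, and 99.9, 99.7 and 99.5 under the Rab5 ASO. At all 3 genes the percentiles of each group overlapped those of every other group.

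Of the coat-removal genes, Synj1 region 10 (chr16:91010778-91011754), which also covers 4930404I05Rik, lay at 92.7, 93.5 and 93.6 in PBS, 91.4, 90.5 and 91.8 in PFF, 93.4, 93.5 and 92.6 under MLi-2, and 92.4, 91.4 and 92.6 under the Rab5 ASO. The PFF values were below all PBS and PFF+MLi-2 values, although in height rank they overlapped PBS. Dnajc6 region 2, at the 5′ end (chr4:101496389-101496939), was lower in the list, at 63.6, 71.8 and 70.6 in PBS, 74.8, 72.5 and 81.0 in PFF, 61.7, 67.5 and 68.4 under MLi-2, and 57.5, 53.1 and 69.3 under the Rab5 ASO. The PFF values of Dnajc6 were the highest of the 4 groups and did not overlap with any of the other 3. In the height ranks tested below they overlapped PBS and PFF+MLi-2. An internal start-site region of Dnajc6 (region 4, chr4:101507799-101508282), taller on average, lay at 77.9, 54.4 and 65.9 in PBS, 78.2, 80.7 and 62.3 in PFF, 73.7, 81.5 and 63.9 under MLi-2, and 66.8, 78.1 and 85.4 under the Rab5 ASO. It overlapped between all groups.

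Pla2g6 region 6 (chr15:79327994-79328559) lay at 94.8, 94.2 and 92.4 in PBS, 91.5, 91.2 and 90.1 in PFF, 95.8, 95.5 and 92.0 under MLi-2, and 91.4, 91.4 and 90.6 under the Rab5 ASO. The PBS and PFF+MLi-2 values were all above those of PFF and PFF+Rab5 ASO.

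**Figure D2:**
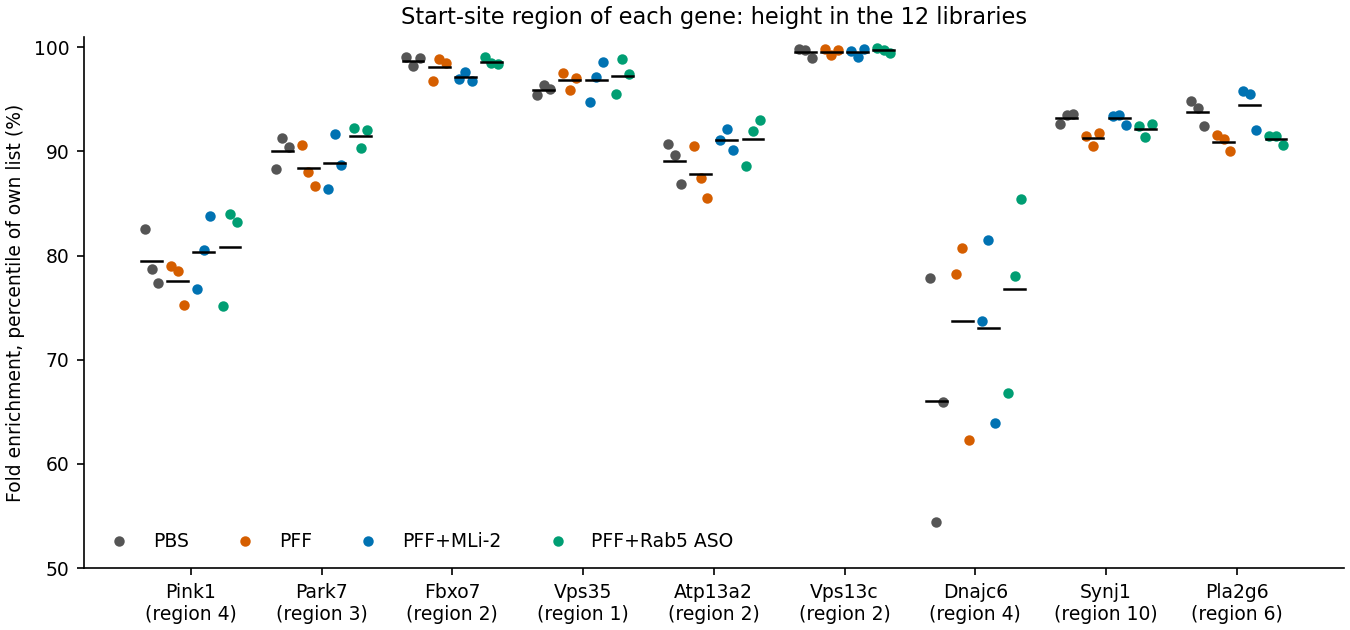
Percentile of the start-site region of each of the 9 genes (vertical axis, % of the library's own peaks) in each library, by group. Points are libraries and bars are group means. Fbxo7, Vps35 and Vps13c sat at 94.8 or above in every library, and the internal start site of Dnajc6 had the widest spread, from 54.4 to 85.4.

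For tests between groups, the folds of the 72465 regions found in all 12 libraries were ranked within each library and turned into normal scores, here called height ranks, in SD units. PFF and PBS neurons were compared with limma for the response to α-synuclein fibrils, PFF+MLi-2 or PFF+Rab5 ASO with PFF for the effect of each intervention, and each with PBS for the distance to vehicle. The 25 member regions in all 12 libraries were read from these fits, with p-values adjusted over all 72465 regions.

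None of the 9 start-site regions passed at an adjusted p of 0.05 in any of the 5 comparisons (limma), and 0 had an unadjusted p under 0.05, against 2.96%, 4.93%, 7.99%, 1.64% and 5.65% of all start-site regions of protein-coding genes. Dnajc6 is represented there by its internal region 4. Among all 12471 of these regions, 0%, 0%, 0.585%, 0% and 0.241% passed in PFF vs PBS, in MLi-2 and the Rab5 ASO each against PFF, and in MLi-2 and the Rab5 ASO each against PBS. The shares of each set are in this order. The median height rank difference of the 9 was −0.14 in PFF vs PBS, against −0.08 for all start sites. Against PFF the medians were 0.12 with MLi-2 and 0.11 with the Rab5 ASO, where all start sites gave 0.10 and 0.07. Pla2g6 had the largest start-site difference with MLi-2, 0.40 ± 0.195 (SE, limma adjusted p = 0.478). Dnajc6 region 2 differed by −0.64 ± 0.246 between PFF+Rab5 ASO and PFF (SE, limma adjusted p = 0.170, unadjusted p = 0.0259), the largest difference of a 5′ end in that comparison. For Pla2g6 the PFF minus PBS difference was −0.29 ± 0.198 (SE, limma adjusted p = 0.687), and for Synj1 the PFF+MLi-2 minus PFF difference was 0.24 ± 0.182 (SE, limma adjusted p = 0.658).

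In PFF vs PBS, 0 of 25 member regions passed (0% of all regions passed in either direction), 0 had an unadjusted p under 0.05 (9.72% of all regions), and the smallest adjusted p was 0.515. The paper, by another method, reports regions that opened and regions that closed with PFF. That none passed in this test on ranks does not show that no region responded. In PFF+MLi-2 vs PFF, again 0 passed (0% of all regions), while 4 had an unadjusted p under 0.05 (11.4% of all regions). In PFF+Rab5 ASO vs PFF, 1 member region passed and was higher, beside 1.97% of all regions that passed as higher and 1.86% as lower, and 6 had an unadjusted p under 0.05 (21.1% of all regions). In PFF+MLi-2 vs PBS 0 passed (0% of all regions) and 1 had an unadjusted p under 0.05 (5.77% of all regions). In PFF+Rab5 ASO vs PBS 1 member region passed and was lower, beside 1% of all regions that passed as higher and 0.631% as lower, and it alone had an unadjusted p under 0.05 (18.7% of all regions). Over all 4 groups at once, by the moderated F test, 1 of 25 passed, against 3.5% of all regions, and 4 had an unadjusted p under 0.05 (21.7% of all regions).

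Groups did not overlap in height rank at 3 of 25 member regions in PFF vs PBS (12%, against 15.1% of all regions). All 3 were lower in PFF (8% of all regions were lower and 7.07% higher), at Pink1 region 4, Dnajc6 region 10 and Pla2g6 region 6. In PFF+MLi-2 vs PFF it was 8 of 25 (32%, against 17.7%, of which 10.1% higher and 7.55% lower), with the start-site regions of Pink1, Atp13a2, Synj1 and Pla2g6 higher and Park7 region 1, Fbxo7 regions 1 and 4 and Vps13c region 7 lower. In PFF+Rab5 ASO vs PFF it was 7 of 25 (28%, against 25.9%; 4 higher against 13.5%, and 3 lower against 12.4%), in PFF+MLi-2 vs PBS 3 (12%, against 10.3%; all lower, against 5.12% lower and 5.21% higher) and in PFF+Rab5 ASO vs PBS 3 (12%, against 23%; 1 higher against 11.4%, and 2 lower against 11.6%). The comparisons against PFF share the PFF libraries, and those against PBS share the PBS libraries.

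**Figure D3:**
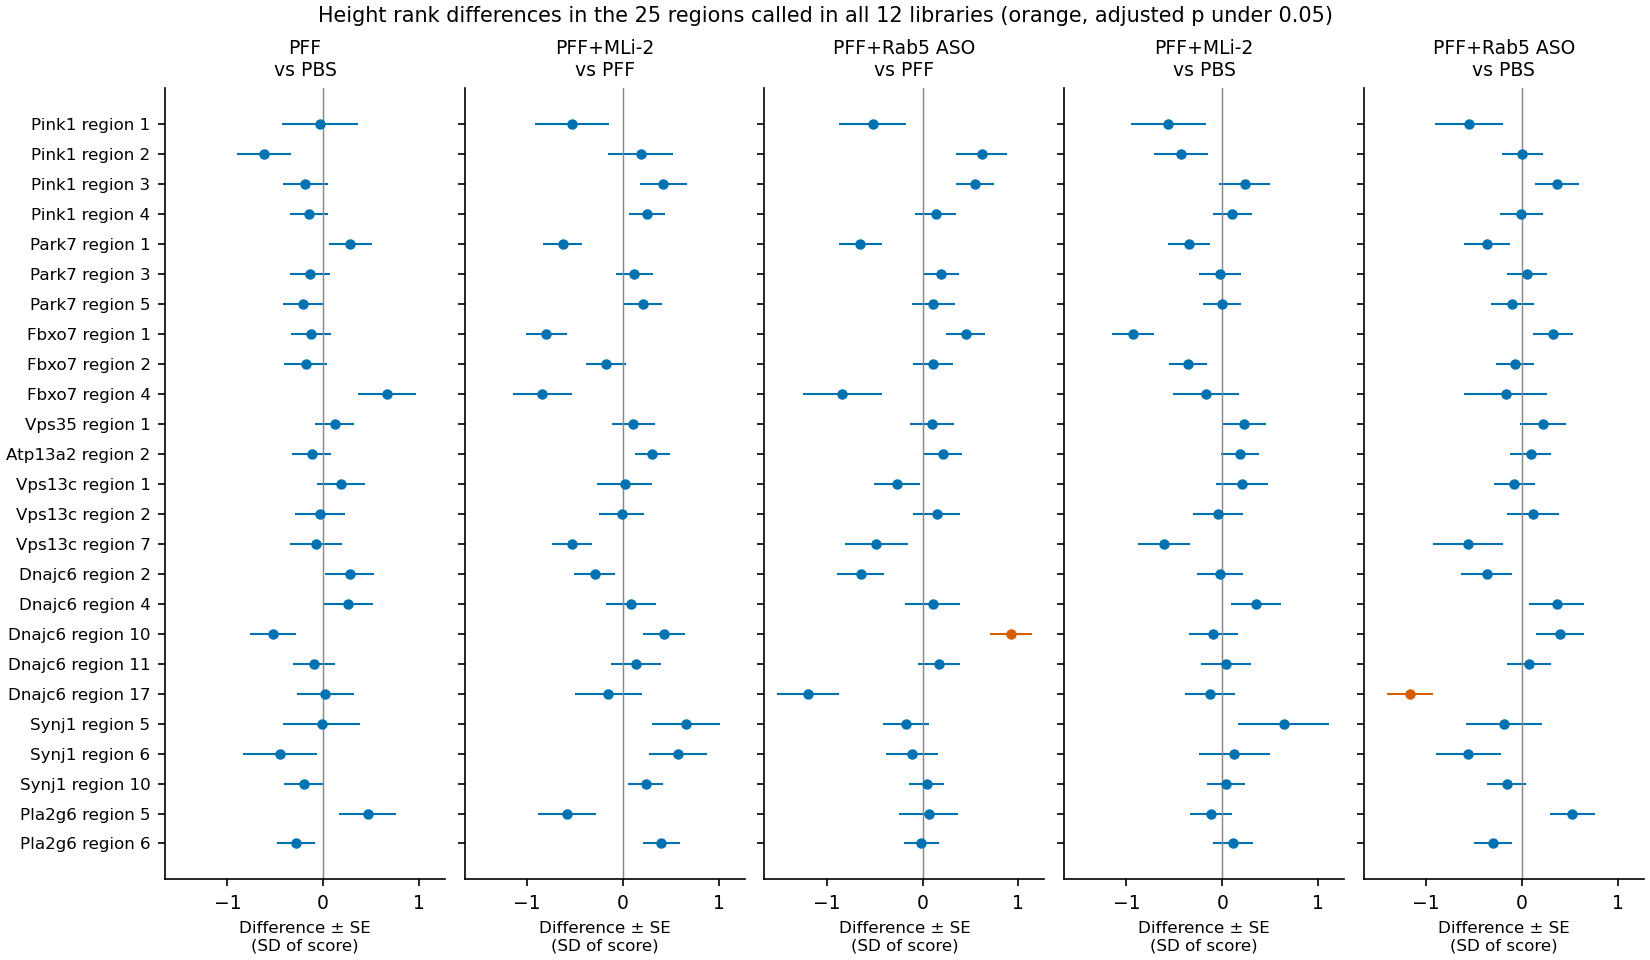
Height rank difference (SD units, horizontal axis) with its SE for the member regions called in all 12 libraries, in each comparison. Dnajc6 region 10 in PFF+Rab5 ASO vs PFF (0.92) and Dnajc6 region 17 in PFF+Rab5 ASO vs PBS (−1.17) are those with an adjusted p under 0.05.

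In each of the 5 comparisons the member region with the largest difference lay away from the 5′ ends, in Dnajc6 (region 17) or at Fbxo7 (upstream region 1 and internal region 4). The regions that passed a test, and those gained or lost, are shown first as sequence, since none of them is the annotated 5′ end of its gene. Each is the 151 bases around the summit of the tallest peak, in GRCm38, 5′ to 3′ on the strand of the gene, with matches to any of 12 motifs searched in capitals.
Fbxo7 region 1 (chr10:86014470-86014620, plus strand): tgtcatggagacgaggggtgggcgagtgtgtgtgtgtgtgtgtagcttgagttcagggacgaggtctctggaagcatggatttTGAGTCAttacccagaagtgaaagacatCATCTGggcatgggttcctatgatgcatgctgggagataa
Dnajc6 region 10 (chr4:101550232-101550382, plus strand): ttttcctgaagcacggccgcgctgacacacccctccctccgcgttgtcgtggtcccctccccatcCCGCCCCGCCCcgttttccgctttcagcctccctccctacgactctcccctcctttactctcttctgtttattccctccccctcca
Dnajc6 region 17 (chr4:101589095-101589245, plus strand): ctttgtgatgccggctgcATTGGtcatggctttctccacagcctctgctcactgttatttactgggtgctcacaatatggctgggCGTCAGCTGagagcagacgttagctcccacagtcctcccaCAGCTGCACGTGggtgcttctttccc
Dnajc6 region 19 (chr4:101604206-101604356, plus strand): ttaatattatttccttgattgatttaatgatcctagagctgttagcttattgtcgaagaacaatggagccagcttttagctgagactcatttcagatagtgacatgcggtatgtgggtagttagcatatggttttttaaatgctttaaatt
Dnajc6 region 21 (chr4:101612318-101612468, plus strand): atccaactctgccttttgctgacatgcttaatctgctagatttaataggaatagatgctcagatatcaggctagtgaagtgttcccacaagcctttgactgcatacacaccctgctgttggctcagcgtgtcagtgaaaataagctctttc
Dnajc6 region 13 (chr4:101569217-101569367, plus strand): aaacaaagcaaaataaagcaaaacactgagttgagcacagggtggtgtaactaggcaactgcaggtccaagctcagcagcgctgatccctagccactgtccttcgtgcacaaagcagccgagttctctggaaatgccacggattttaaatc
Dnajc6 region 24 (chr4:101620330-101620480, plus strand): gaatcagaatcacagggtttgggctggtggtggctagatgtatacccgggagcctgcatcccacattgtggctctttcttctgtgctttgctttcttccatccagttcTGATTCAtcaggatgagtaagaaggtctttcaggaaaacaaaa
Vps13c region 5 (chr9:67869767-67869917, plus strand): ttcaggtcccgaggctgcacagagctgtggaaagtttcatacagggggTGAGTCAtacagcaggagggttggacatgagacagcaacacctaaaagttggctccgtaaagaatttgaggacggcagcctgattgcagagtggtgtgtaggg

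The motifs, read on both strands, were the TFEB and TFE3 E-box CACGTG, the E-boxes CAGCTG and CATCTG, the AP-1 site TGANTCA, the cAMP response element TGACGTCA and the short element TGACG (which also matches inside the full one), the GC box GGGCGG, the CCAAT box, the ETS core CCGGAAGT, and the NRF1, YY1 and MEF2 sites. Dnajc6 region 10 holds GC boxes, present in 8.2% of windows of all regions and 17% of those in all 12 libraries. Dnajc6 region 17 holds the CACGTG E-box (2.84% of all windows), CAGCTG (14.1%), CCAAT (18.6%) and the short element TGACG (7.11%). AP-1 letters (8.97% of all windows) stand in Fbxo7 region 1, Vps13c region 5 and Dnajc6 region 24. Fbxo7 region 1 also holds CATCTG (18.3%). Dnajc6 regions 13, 19 and 21 hold none of the 12. Of the 79 member windows, 7 held CACGTG and 7 the AP-1 letters. These are matches of letters, and no binding was measured.

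Fbxo7 region 1 (chr10:86014396-86014937) is centred 7.31 kb upstream of the Fbxo7 5′ end and covers no other annotated gene. Its percentile was 78.0, 76.6 and 75.4 in PBS, 79.7, 72.5 and 72.2 in PFF, 39.9, 58.4 and 48.1 under MLi-2, and 86.0, 87.2 and 79 under the Rab5 ASO. PFF+MLi-2 was below every other library and did not overlap with any group, and PFF+Rab5 ASO lay above PBS, with its lowest library under the highest PFF library. In height rank it was PFF that PFF+Rab5 ASO cleared without overlap, while its lowest library lay under the highest PBS library. The fragments at the summit were 20, 19 and 18 in PBS, 20, 18 and 17 in PFF, 13, 15 and 15 under MLi-2, and 24, 25 and 20 under the Rab5 ASO, in the same order of groups. The 4 groups differed in height rank (limma moderated F, adjusted p = 0.0205). None of the 5 pairwise comparisons run passed, and PFF+Rab5 ASO against PFF+MLi-2, the pair farthest apart in percentile, was not fitted. PFF+MLi-2 minus PFF was −0.80 ± 0.214 (SE, limma adjusted p = 0.267), PFF+MLi-2 minus PBS −0.93 ± 0.221 (SE, limma adjusted p = 0.815) and PFF+Rab5 ASO minus PFF 0.45 ± 0.204 (SE, limma adjusted p = 0.239). The F test passed in 8 of 12 fits that left out 1 library (adjusted p 0.0268 to 0.0565), and was lost without PFF+MLi-2 replicate 1 (0.0544) or without PFF+Rab5 ASO replicate 1, 2 or 3 (0.0551, 0.0565 and 0.0517). In 5 other settings the F test passed in 3 (adjusted p 0.0132 to 0.0575). It was lost with an equal number of top peaks and with merging at 50 bp.

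The Fbxo7 internal start-site region 4 (chr10:86032566-86032956) had another pattern. It lay at 78.8, 62.0 and 87.7 in PBS, 84.3, 92.4 and 92.0 in PFF, 54.6, 77.0 and 80.8 under MLi-2, and 48.0, 88.2 and 81.7 under the Rab5 ASO. PFF was above PFF+MLi-2 without overlap, and PBS and PFF+Rab5 ASO spread widely. The PFF+MLi-2 minus PFF difference was −0.84 ± 0.307 (SE, limma adjusted p = 0.363). PFF minus PBS was 0.67 ± 0.302 (SE, limma adjusted p = 0.515), the largest member difference of that comparison.

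Dnajc6 region 10 (chr4:101550190-101550523) covers an annotated start site 53.7 kb into the gene. Its percentile was 67.4, 58.9 and 76.2 in PBS, 63.3, 53.0 and 49.1 in PFF, 62.4, 71.4 and 53.7 under MLi-2, and 75.6, 75.7 and 83.7 under the Rab5 ASO. All PFF+Rab5 ASO libraries were above all PFF and PFF+MLi-2 libraries, while the tallest PBS library lay among them. The summit held 22 to 28 fragments in PBS, 21 to 27 in PFF, 23 to 26 under MLi-2 and 30 to 36 under the Rab5 ASO, the group with the deepest libraries. The region rose in PFF+Rab5 ASO against PFF by 0.92 ± 0.218 (SE, limma adjusted p = 0.0486). Against PBS the Rab5 ASO difference was 0.40 (limma adjusted p = 0.436), and PFF minus PBS was −0.52 ± 0.238 (SE, limma adjusted p = 0.518). The call against PFF was lost in each of 6 fits without 1 library (adjusted p 0.0754 to 0.139) and with the replicate number as a block (0.0748). The neighbouring start-site region 11 lay at 56.2 to 78.5 and overlapped between all groups.

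Dnajc6 region 17 (chr4:101589002-101589272) is intronic, 92.5 kb from the 5′ end. Its percentile was 81.3, 74.6 and 78.5 in PBS, 66.0, 83.7 and 87.6 in PFF, 83.9, 62.4 and 73.6 under MLi-2, and 39.4, 61.2 and 41.7 under the Rab5 ASO. The PFF+Rab5 ASO libraries were the 3 lowest of all 12. The summit held 21, 18 and 19 fragments in PBS, 16, 22 and 24 in PFF, 23, 16 and 20 under MLi-2, and 13, 15 and 13 under the Rab5 ASO. The Rab5 ASO libraries were the deepest, and the part of depth was not tested. The region fell in PFF+Rab5 ASO against PBS, with a difference of −1.17 ± 0.239 (SE, limma adjusted p = 0.0443). Against PFF the difference was −1.19 ± 0.325 and did not pass (SE, limma adjusted p = 0.0722). The call against PBS was lost in each of 6 fits without 1 library (adjusted p 0.0716 to 0.121) and with the replicate number as a block (0.0807). Regions 10 and 17 thus moved in opposite directions with the Rab5 ASO, each against a different control group.

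Other member regions with an unadjusted p under 0.05 are given as values. Park7 region 1, in an intron, lay at 82.3, 69.8 and 68.7 in PBS, 78.1, 81.6 and 83.6 in PFF, 64.2, 67.6 and 58.3 under MLi-2, and 63.1, 75.1 and 61.1 under the Rab5 ASO. PFF was above both interventions without overlap, with differences of −0.63 ± 0.204 for MLi-2 (SE, limma adjusted p = 0.324) and −0.65 ± 0.227 for the Rab5 ASO (SE, limma adjusted p = 0.139). Vps13c region 7, intronic and 95.4 kb from the 5′ end, lay at 96.0, 80.5 and 93.0 in PBS, 90.7, 93.5 and 87.2 in PFF, 76.3, 84.6 and 79.4 under MLi-2, and 88.5, 92.0 and 63.3 under the Rab5 ASO. Its PFF+MLi-2 minus PFF difference was −0.53 ± 0.210 (SE, limma adjusted p = 0.393). Pink1 intronic regions 2 and 3 were above PFF with the Rab5 ASO, by 0.62 ± 0.269 (SE, limma adjusted p = 0.223) and 0.55 ± 0.20 (SE, limma adjusted p = 0.151). Region 3 of Pink1 is a low peak, at 2.04 to 14.8 in the 12 libraries.

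**Figure D4:**
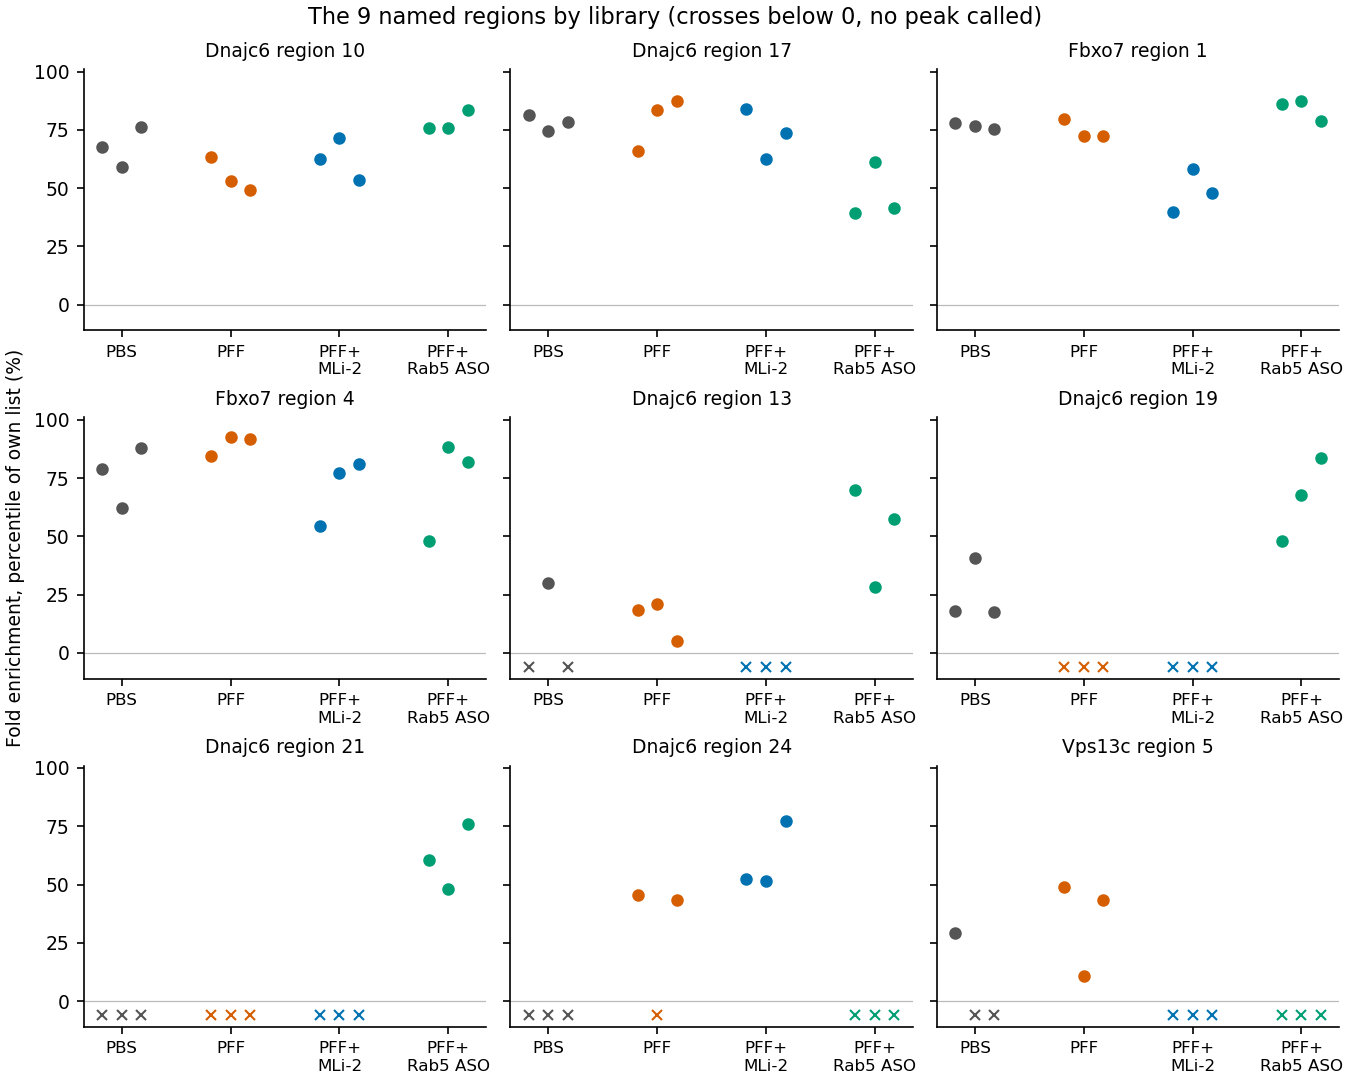
Percentile of fold (vertical axis, %) in each library for the 9 named regions away from the genes' 5′ ends, by group. Points are libraries with a peak, and crosses below 0 are libraries with no peak called. PFF+MLi-2 is lowest at Fbxo7 region 1 (39.9 to 58.4), and PFF+Rab5 ASO is lowest at Dnajc6 region 17 (39.4 to 61.2).

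Calls that were present in all 3 libraries of one group and in none of another were counted as gained or lost. With 3 against 3 an exact permutation test cannot go below 0.1, so no call of this kind carries a p-value. Member regions with a peak in either group are the denominator. Gained regions numbered 0 of 61 in PFF vs PBS (1.1% of all regions), 0 of 67 in PFF+MLi-2 vs PFF (0.374%), 2 of 71 in PFF+Rab5 ASO vs PFF (2.64%), 1 of 59 in PFF+MLi-2 vs PBS (0.225%) and 1 of 61 in PFF+Rab5 ASO vs PBS (2.59%). Lost regions numbered 1 of 61 (0.405% of all regions), 2 of 67 (1.64%), 1 of 71 (1.94%), 1 of 59 (0.577%) and 0 of 61 (0.991%) in the same order. The loss in PFF vs PBS and the losses of either intervention against PFF all came to 0 when lists were cut to equal size, and again with peaks of a −log10 q of at least 5, which also brought the loss in PFF+MLi-2 vs PBS to 0. These 5 distinct regions were Dnajc6 regions 13, 19, 21 and 24 and Vps13c region 5, all intronic.

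Dnajc6 region 19 (chr4:101604023-101604367) was called in PBS, at 17.9, 40.5 and 17.7, and under the Rab5 ASO, at 48.0, 67.8 and 83.5, and in no PFF or PFF+MLi-2 library. The Rab5 ASO peaks were all taller than the PBS peaks, with 14, 17 and 22 fragments at the summit against 10, 12 and 10. The PBS peaks had a −log10 q of 3.36 to 5.08 and the Rab5 ASO peaks 5.81 to 13.3.

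Dnajc6 region 21 (chr4:101612324-101612444) was called only under the Rab5 ASO, at 60.7, 48.3 and 75.9 with 16, 13 and 19 fragments. Its −log10 q was 5.72 to 10.4, above the PBS peaks of region 19. Dnajc6 region 13 (chr4:101569126-101569364) was called at 18.5, 21.1 and 5.10 in PFF, at 69.7, 28.3 and 57.6 under the Rab5 ASO and at 29.9 in PBS replicate 2. No PFF+MLi-2 library had it, and the PFF peaks rested on 8 to 10 fragments.

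Dnajc6 region 24 (chr4:101620343-101620491) was called in all PFF+MLi-2 libraries, at 52.5, 51.5 and 77.3, and in PFF replicates 1 and 3, at 45.5 and 43.4. No PBS or PFF+Rab5 ASO library had it. Vps13c region 5 (chr9:67869820-67869918) was called in all PFF libraries, at 48.8, 10.9 and 43.4 with 13, 9 and 12 fragments, and in PBS replicate 1, at 29.3. No library of either intervention had it. Of these Dnajc6 regions, 3 (regions 13, 19 and 21) had their tallest peak in a PFF+Rab5 ASO library and 1 (region 24) in a PFF+MLi-2 library.

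**Figure D5:**
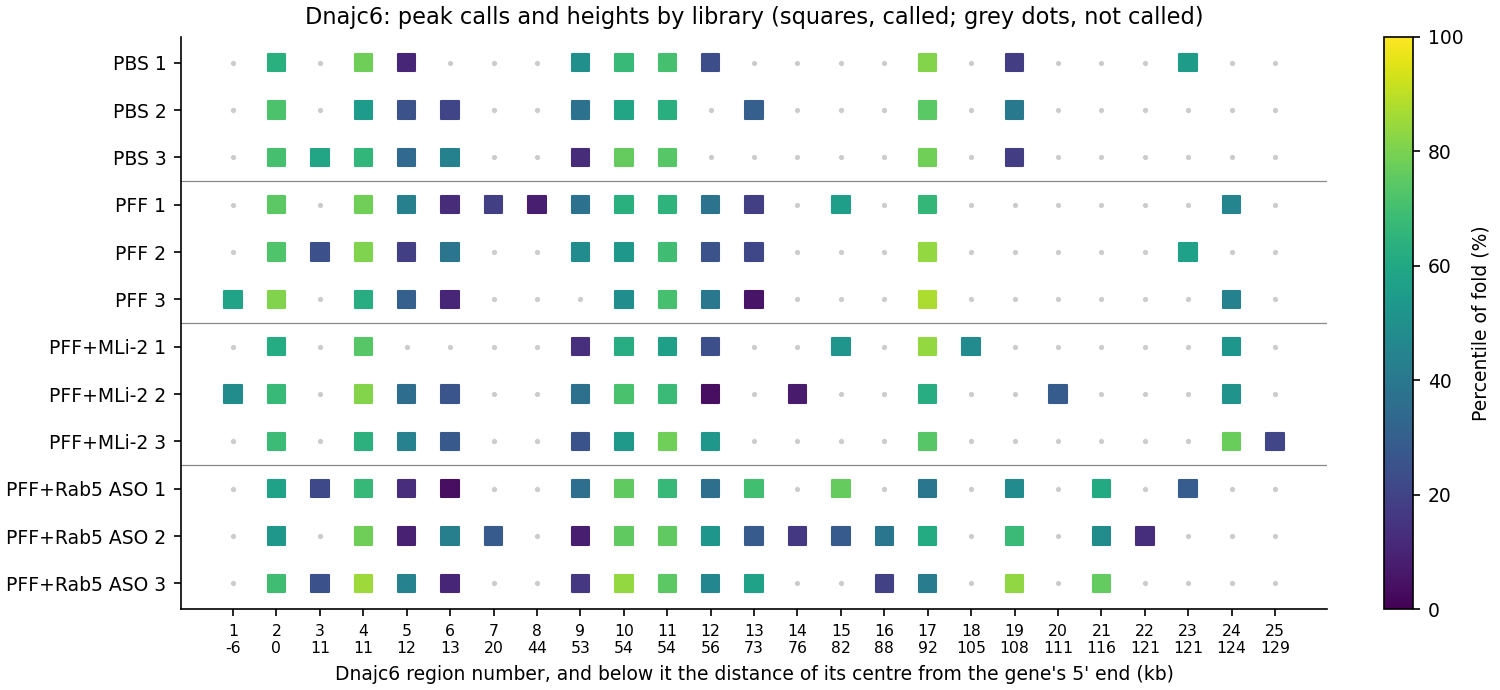
The 25 regions of Dnajc6 are evenly spaced by region number (horizontal axis), with the distance from the gene's 5′ end printed below (kb). Each of the 12 libraries has 1 row, and shading gives the percentile of fold. The 5 regions called in every library lie at the 5′ end, near 11.4, 53.7 and 54.3 kb and at 92.5 kb, and most others are scattered through the introns.

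The 9 start-site regions, 1 for each gene, passed no test between groups and can be read beside the promoters they cover. RefSeq promoters of GRCm38.p6, from 250 bases before to 50 after a start, were matched by symbol to 7 of the 9 genes, all but Vps35 and Vps13c. Those of Dnajc6 include 1, at chr4:101550344-101550643, that overlaps region 10, the region that passed in PFF+Rab5 ASO vs PFF. Pink1, Park7 and Fbxo7, the mitochondrial genes, each hold the letters of an NRF1 site, a factor known for promoters of mitochondrial genes, which are in 4.6% of all 32851 promoters. Pla2g6 holds a YY1 site, which is in 0.852% of them. NRF1 letters were thus in 3 of 10 member promoters and YY1 letters in 1, and no enrichment was tested. Of the other motifs, the GC box was in 6 of the 10 (35.7% of all promoters), the CCAAT box in 1 (37.4%) and the ETS core in 0 (3.89%). The NRF1 and YY1 sites are shown with their flanks, on the strand of the gene and with the motif in capitals.
Pink1 (chr4:138326289-138326314, minus strand): cgccccccGCGCTTGCGCacaggcgc
Park7 (chr4:150910032-150910057, minus strand): gggcaattGCGCAGGCGCccgcaggg
Fbxo7 (chr10:86021795-86021820, plus strand): caaacccaGCGCCTGCGCcgtgcgcg
Fbxo7 (chr10:86021860-86021885, plus strand): atagggaaGCGCAGGCGCtcggccct
Pla2g6 (chr15:79328358-79328383, minus strand): agttatagAAGATGGCGGcgcctgac

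Counted from its first base, the Pink1 site begins 10 bases before the RefSeq start, the Park7 site 128 and the Fbxo7 sites 126 and 61. The Pla2g6 site begins 4 bases before the start and runs across it. All 5 fall within the start-site regions given above, Pink1 region 4, Park7 region 3, Fbxo7 region 2 and Pla2g6 region 6. The Park7 site is at the internal start-site region and not at the annotated 5′ end of the gene. Fbxo7 also holds CACGTG, which is in 7.15% of promoters, in the row of its second RefSeq start.

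The pathways around the 9 genes were read from fixed lists of other genes. With 1 start-site region a gene, 0 higher and 0 lower passed limma's test in each of the 5 comparisons for 17 genes of PINK1-parkin mitophagy, 17 of retromer and the WASH complex, 19 of the clathrin coat and its removal, 5 of the VPS13 and P5-type ATPase families, and 19 other parkinsonism genes. Over all protein-coding start-site regions at most 0.585% passed in a comparison, so that 0 in lists of this size is near the background. An unadjusted p under 0.05 was reached by 0 or 1 gene per comparison of the mitophagy and clathrin lists, by 0 of the retromer and VPS13 lists, and by at most 3 of the other parkinsonism genes, in the Rab5 ASO comparison with PFF, where the share over all start sites ran from 1.64% to 7.99%. Calls within 1 kb of the lists' start sites were also gained or lost in a few cases. In PFF+Rab5 ASO vs PFF the clathrin list gained 1 and lost 2 of 73 regions and the VPS13 list gained 1 and lost 2 of 26. In PFF+MLi-2 vs PFF the clathrin list lost 2 of 73, and in PFF+Rab5 ASO vs PBS the other parkinsonism genes gained 2 of 56. Each of these 3 lists had at most 1 gained and 1 lost in the other comparisons. Over all 36887 such regions of protein-coding genes, 208 were gained and 388 lost under the Rab5 ASO against PFF, 54 gained and 358 lost under MLi-2 against PFF, and 288 gained and 167 lost under the Rab5 ASO against PBS. The mitophagy and retromer lists had 0 gained and 0 lost in all 5 comparisons. Retromer genes had a median height rank difference of −0.15 in PFF vs PBS and 0.11 in PFF+MLi-2 vs PFF, beside −0.08 and 0.10 for all start sites. The clathrin genes had −0.10 and 0.14 and the mitophagy genes −0.07 and 0.10. The smallest adjusted p of a gene on these lists was that of Lrrk2, the kinase that MLi-2 inhibits, whose start-site region had group mean percentiles of 98.2 in PBS, 98.3 in PFF, 99.4 under MLi-2 and 92.7 under the Rab5 ASO. Its PFF+Rab5 ASO minus PFF difference was −0.83 ± 0.226 (SE, limma adjusted p = 0.0729). In the same comparison Synj2, a paralogue of Synj1, had −0.76 (limma adjusted p = 0.0832) and Fundc1, a mitophagy receptor, 0.66 (limma adjusted p = 0.0991). Against PBS the Rab5 ASO differences were 0.78 for Fundc1 (limma adjusted p = 0.0890) and −0.84 for Lrrk2 (limma adjusted p = 0.0951). These genes were singled out after their values were seen.

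Over the 12 libraries, each start-site region was also set beside the start-site regions of 12470 other genes, to name the gene whose height ranks followed it most closely by Pearson's r. The genes were Erich1 for Pink1 (r = 0.874), Aebp2 for Park7 (0.94), Itgal for Fbxo7 (0.827), Pbx3 for Vps35 (0.876), Rims3 for Atp13a2 (0.881), Ccdc13 for Vps13c (0.929), Tnip1 for Dnajc6 (0.839), Cdk5r2 for Synj1 (0.957) and Samd4 for Pla2g6 (0.906). These values are descriptions over 12 points that share depth and the ranking of each library, and each is the highest of all those compared. No member had another member as its closest gene.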

How the data were processed

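ATAC-seq peak lists of 12 libraries were used, 3 each of PBS, PFF, PFF+MLi-2 and PFF+Rab5 ASO. Per the labels and the submitters' processing notes, reads were trimmed with Trim Galore 0.6.7, aligned to the mouse genome with Bowtie2 2.5.1 and called library by library with MACS2 2.2.7.1. Bowtie2 was run with its defaults, and MACS2 options, duplicate removal and the Tn5 shift are not given in the sources used here. The deposited files hold, for each peak, fold enrichment over local background (a ratio), −log10 p, −log10 q and an integer score that the authors' peak caller wrote. Fold was the main value and the −log10 q set a stricter list. The score was not used beyond checks.

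The 1916151 peaks of the 12 libraries were merged at 1 bp and assigned with GENCODE vM21 on GRCm38. This count includes 1440 peaks on sequences other than the numbered autosomes and the sex chromosomes. Within a library the fold was expressed as a percentile, which removes overall scale but ties each value to the other peaks. Summit fragments were recovered from fold and p, and intervals from them would cover counting error only. Height ranks of the 72465 regions in all 12 libraries were fitted with limma 3.58.1 (R 4.3.3) for each pair of groups (6 libraries, no covariate) and over 4 groups (F), with Benjamini-Hochberg adjustment over all regions at 0.05. Only these regions were tested, so a region absent from a group could not enter. Scripts were tested on simulated data (Python 3.11.15, numpy 2.4.6, pandas 2.3.3, scipy 1.17.1, matplotlib 3.10.9).

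Regions were named when they were the start-site region of a member, passed a test, had the largest difference of a comparison, or were gained or lost. Those with an unadjusted p under 0.05, and Dnajc6 regions 2 and 11 and Park7 region 5, were added after their values were seen. The 9 genes, the pathway lists and the motifs were chosen with earlier results of these data known. For both interventions the sample descriptions give PBS where the titles and treatment labels give PFF, and the latter were followed. The libraries measure chromatin and do not show whether Rab5 was lowered or LRRK2 inhibited. Alternatives were a replicate block, 1 fit over 12 libraries, regions in 6 libraries, percentiles without normal scores, an equal number of top peaks, a minimum −log10 q of 5, merging at 50 bp, calls in at least 2 of 3 libraries and leaving out each library.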

Additional observations from a re-analysis of the deposited data

How the results depend on the processing

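Gained and lost calls moved more than heights with the processing, and the cause was not tested. For gained or lost member regions, calls in at least 2 of 3 libraries against 0 of 3 gave 3 in PFF vs PBS (1 as reported), 5 for MLi-2 against PFF (2), 9 for the Rab5 ASO against PFF (3), 4 for MLi-2 against PBS (2) and 5 for the Rab5 ASO against PBS (1). An equal number of top peaks gave 0 in PFF vs PBS and 0 for MLi-2 against PFF. Peaks with a −log10 q of at least 5 gave 0 in PFF vs PBS, 0 for MLi-2 against PFF and 1 for MLi-2 against PBS, and merging at 50 bp gave 1 for MLi-2 against PFF. Leaving out 1 library gave 1 to 3 in PFF vs PBS (3 without PBS replicate 1 or 2, 2 without PFF replicate 2 or 3), 2 to 5 for MLi-2 against PFF (5 without PFF replicate 3), 3 to 5 for the Rab5 ASO against PFF (5 without PFF replicate 3), 2 to 4 for MLi-2 against PBS (4 without PBS replicate 2) and 1 to 4 for the Rab5 ASO against PBS (4 without PBS replicate 2), and fewer libraries make such calls easier to reach.

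For height ranks, the 1 call for the Rab5 ASO against PFF (Dnajc6 region 10) became 0 with the replicate block, with regions in all 6 libraries and with percentiles without normal scores. Without 1 library the comparison gave 0 to 1 calls, the 1 being Dnajc6 region 17 without PFF replicate 1, and region 10 passed in none of the 6 fits. Over the 7 other settings the adjusted p of region 10 was 0.0369 to 0.0748 and passed in 4. The 1 call for the Rab5 ASO against PBS (Dnajc6 region 17) became 0 with the replicate block and with 1 fit over all 12 libraries, and 0 to 0 in the 6 fits without 1 library. Its adjusted p was 0.0283 to 0.0807 over 7 settings and passed in 5. The 1 call over 4 groups (Fbxo7 region 1) became 0 with an equal number of top peaks (adjusted p = 0.0538) and with merging at 50 bp (0.0575), and the 4-group test gave 0 to 2 calls without 1 library, where region 1 passed in 8 of 12 fits. Against PFF, Dnajc6 region 17 passed only without PFF replicate 1 (adjusted p = 0.0439). The 0 calls of the other 3 comparisons stayed 0 under each alternative run. Direction was followed only for the largest difference of each comparison and for the called regions, and none of these changed direction. The replicate block changed no other call. Same-numbered libraries deviated together with r of 0.00513 to 0.0788, under the 0.1 set for pairing, and no source used here says that a number marks a shared pregnancy, although 29 of 30 checks placed a library closest to its own number, a hint from the data and not the design. Summits of 8 to 13 fragments limit the weakest calls.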
